A study of Homo sapiens with 17 samples.

Results

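A list of 37 genes for protein folding in the endoplasmic reticulum (ER) and for the unfolded protein response was followed through 5-azacytidine treatment of HepG2 cells. The genes were taken by symbol, and all 37 were found among the 63187 genes of the deposited RNA count table. Of these, 36 had enough counts to be tested, out of 18999 tested genes. DERL3, an ER-membrane protein of the degradation pathway, was the exception, with 5 counts in a single library at 2 µM and 0 counts in the other 8 libraries. In the chromatin data 123 of 58372 peaks carried the symbol of 36 of the genes, and 51 of those peaks, at 30 genes, were annotated as promoters.

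HepG2 is an established human line from a liver carcinoma, labelled here as liver tissue, hepatocyte cell type and WT genotype. It was kept for 4 days in medium renewed each day with 0, 2 or 10 µM 5-azacytidine, a cytidine analogue that is built into RNA and DNA and traps DNA methyltransferases. The 0 µM cultures are the only controls, and every group shares the line and the time. RNA was sequenced in 3 libraries per dose. Accessible chromatin, profiled by ATAC-seq, has 3 libraries for each of 0 and 2 µM and 2 for 10 µM.

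Secreted and membrane proteins enter the ER through the SEC61 channel and fold there with the help of Hsp70 and Hsp90 chaperones, lectin chaperones that bind sugar chains, and disulfide isomerases. When unfolded proteins build up, 3 sensors in the ER membrane, IRE1 (gene ERN1), PERK (EIF2AK3) and ATF6, raise chaperone and degradation genes through the transcription factors XBP1, ATF4 and cleaved ATF6. Hepatocytes secrete large amounts of plasma protein and keep this machinery at a high level.

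RNA counts per library were between 35553052 and 46430168, and ATAC counts in peaks between 2896671 and 7864321. Levels are given as CPM, edgeR's depth-scaled counts with TMM factors, in the order of replicates 1 to 3. Changes are log2 ratios with the standard error (SE) of an edgeR quasi-likelihood fit, and "rose" and "fell" are used for an adjusted p under 0.05. Replicates are described as biological but not as separate cultures, so the p-values measure the spread between these libraries, which may be technical. Replicate 3 stood apart at 0 and 2 µM: mitochondrially encoded genes took 0.275% and 0.235% of its counts, against 0.0683% to 0.107% in the other libraries at these doses and 0.114% to 0.150% at 10 µM. The 10 hepatocyte-type markers checked, among them ALB and HNF4A, were all detected at 0 µM, where they summed to 2.49% to 3.96% of counts, and to 0.123% to 0.215% at 10 µM. The leukocyte list of 8 genes summed to 0.210% to 0.305% at 0 µM and 0.00608% to 0.0101% at 10 µM, nearly all of it LYZ, with the defining PTPRC at 0 counts in all 9 libraries. The endothelial list of 6 genes summed to 0.00125% to 0.00211% at 0 µM and 0.0303% to 0.0406% at 10 µM, nearly all of it ESAM, with KDR at 0 in all libraries at 0 and 2 µM. Of the 3 endothelial genes tested, 1 rose and 1 fell at 10 µM, with changes from -3.36 to 4.72 and a median of -1.11. The plasma cell list of 6 genes summed to 0.0413% to 0.0580% at 0 µM and 0.0187% to 0.0231% at 10 µM. Only 2 of these 6 had enough counts to be tested, and they went opposite ways at 10 µM, by -1.60 and 7.18. The 7 fibroblast genes stayed at or below 0.00215%. The part of these shifts in the results was not tested. In cells sequenced in bulk, fewer cells of a type and less RNA per cell cannot be told apart.

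Many ER chaperone promoters carry the ER stress response element (ERSE), CCAAT and CCACG with 9 bases between them, which is known as a site of the factor NF-Y and of cleaved ATF6. Exact matches on either strand were found in 8 of the 33 members with a RefSeq promoter (GRCh38.p14, 250 bases before to 50 bases after the start), or 24.2%, and in 25 of 27305 genes, or 0.0916%. Those 25 genes include the 8. As ER chaperone genes are known for this element, the higher share among members is given in part by the choice of list and is not a test. The matches are shown because most of these genes are among the members that moved furthest at 10 µM. They are written 5′ to 3′ on the strand that reads CCAAT before CCACG, with 5 bases on each side and both parts in capitals.
HSPA5: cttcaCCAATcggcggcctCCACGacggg
HSP90B1, farther from the start: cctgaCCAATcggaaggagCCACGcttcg
HSP90B1, nearer the start: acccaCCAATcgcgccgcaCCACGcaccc
CALR: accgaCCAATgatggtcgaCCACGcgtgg
CANX: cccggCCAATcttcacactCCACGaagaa
PDIA6: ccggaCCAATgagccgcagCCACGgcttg
CRELD2: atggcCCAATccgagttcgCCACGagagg
XBP1: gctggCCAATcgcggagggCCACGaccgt
ERO1B: ggcggCCAATgaggcgggaCCACGcgggc
The HSPA5 match is at chr9:125241391-125241409, 48 to 66 bases before the start on the gene's strand. In HSP90B1 the matches lie at chr12:103930216-103930234 and chr12:103930321-103930339, the second on the opposite strand. The CALR match is at chr19:12938384-12938402, opposite to the gene, 207 to 225 bases before its start. CANX has its match at chr5:179698778-179698796, PDIA6 at chr2:10812853-10812871, XBP1 at chr22:28800603-28800621 and ERO1B at chr1:236282183-236282201. The CRELD2 match, chr22:49918554-49918572, lies between CRELD2 and the divergent gene ALG12 and counts for both.

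A shorter relative, ERSE-II, with ATTGG and CCACG 1 base apart, was found in 3 members, or 9.09%, and in 19 of the 27305 genes, or 0.0696%. These windows are shown because they belong to members without an ERSE.
HERPUD1: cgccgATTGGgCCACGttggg
HYOU1, nearer the start: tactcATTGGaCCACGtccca
HYOU1, farther from the start: ctgggATTGGaCCACGtcacg
SDF2L1: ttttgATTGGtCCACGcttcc
They lie at chr16:56932025-56932035, chr11:119057274-119057284, chr11:119057380-119057390 and chr22:21642114-21642124. The CCACG part alone was in 25 of the 33 member promoters, or 75.8%, and in 42.1% of all genes. The letters TGACGTGG, the core of the element bound by XBP1, were found in HYOU1, TXNDC5 and TXNDC11, or 9.09% of members, against 0.927% of all genes. With 1 mismatch allowed, 14 members, or 42.4%, and 1.89% of all genes held an ERSE. No promoter entry was used for DERL1, DERL3, SEC24D and PDIA3. These shares, too, come from a list chosen for this response and are not a test. A match describes the letters and does not show that a factor binds there.

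At 10 µM most chaperones and disulfide isomerases and all 4 translocation genes of the ER fell. Of the 36 tested genes, 25 fell and 2 rose against 0 µM, with a median log2 change of -1.23. Over all 18999 genes 25.1% fell and 23% rose, 48.1% together, and the median was -0.02. All 3 libraries at 10 µM were below all 3 at 0 µM in 27 of the 36 genes, against 29% of all genes, and above them in 1, DERL1, against 29.9%. At 2 µM 5 genes fell and 0 rose, where 1.06% of all genes fell and 3.22% rose, 4.28% together. The median at 2 µM was -0.32, and 32 of 36 estimates were negative. Taken as a sum, the 37 genes held 1.13% to 1.25% of all RNA counts at 0 µM, 0.786% to 1.11% at 2 µM and 0.390% to 0.408% at 10 µM.

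**Figure D1:**
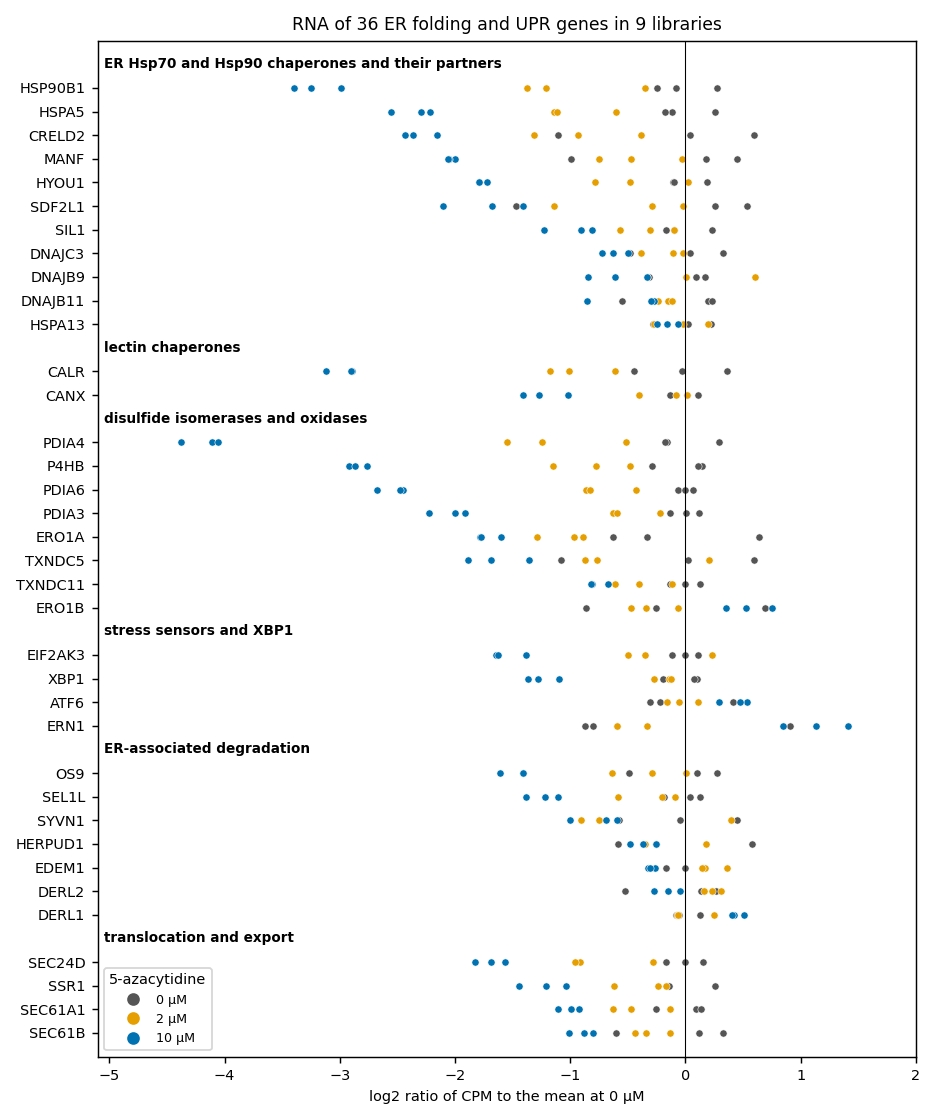
RNA of the 36 tested genes in each of the 9 libraries, as the log2 ratio of CPM to the gene's mean at 0 µM, grouped by role. Points of 10 µM lie left of the other doses for most chaperones and isomerases, down to PDIA4 with a fitted change of -4.18, and right of the mean for ERN1, ATF6, ERO1B and DERL1.

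Among the ER Hsp70 and Hsp90 chaperones and their partners, 8 of 11 fell at 10 µM, with a median change of -1.70. HSPA5 (BiP, the ER Hsp70, chr9:125234853-125241343) had 609, 470.3 and 450.4 CPM at 0 µM, 232, 235 and 335 with 2 µM and 109.5, 104 and 86.9 with 10 µM. The 3 doses formed separate ranges. Its change from 0 to 10 µM was -2.35 ± 0.21, a 5.09-fold fall (adjusted p = 2.90e-06). HSP90B1 (GRP94, the ER Hsp90) had 1321, 1175 and 1693 CPM at 0 µM, 537, 605 and 1098 with 2 µM and 175, 132 and 146 with 10 µM. Its doses were also separate, though the third library at 2 µM came close to the controls. The change at 10 µM was -3.21 ± 0.28 (adjusted p = 2.40e-06), a 9.22-fold fall. HSP90B2P, a near-identical copy of HSP90B1, took 555 counts over all libraries against 273379 for HSP90B1.

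HYOU1, an Hsp110-type exchange factor for BiP, had 415, 337 and 339.5 CPM at 0 µM and 110.3, 105 and 105 at 10 µM, a change of -1.77 ± 0.22 (adjusted p = 2.82e-05). At 2 µM the third library, at 370 CPM, lay inside the control range and the other two lay below it. SIL1, another exchange factor, fell by 0.97 and DNAJC3, a J-domain partner of BiP that also inhibits PERK, by 0.61 (adjusted p = 0.00149 and 0.0283). The DNAJC3 call was lost without either of the first 2 libraries at 0 µM or any 1 library at 10 µM, with an adjusted p of up to 0.129. The other J-domain genes and the Hsp70-like gene HSPA13 were not called: DNAJB9 had -0.58 ± 0.25 (adjusted p = 0.0729), DNAJB11 -0.45 ± 0.23 (0.123) and HSPA13 -0.16 ± 0.19 (0.524). DNAJB11 was called without the third control, at -0.68 (adjusted p = 0.00910). DNAJB9 was called with only the compared doses (adjusted p = 0.0436), without the third 2 µM library (0.0461) and without the third library of both 0 and 2 µM (0.0454).

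CRELD2, MANF and SDF2L1 are small soluble ER proteins known as targets of ER stress. MANF had 125, 104 and 46.0 CPM at 0 µM, 66.2, 54.3 and 89.6 with 2 µM and 22.8, 22.1 and 21.9 with 10 µM. The 10 µM libraries lay below all others, and the third control was under the first 2. In CRELD2 the third control was again low, with 75.2, 51.2 and 23.2 CPM at 0 µM against 9.69, 9.24 and 11.2 at 10 µM. SDF2L1 had 47.9, 39.4 and 11.9 CPM at 0 µM and 10.3, 7.67 and 12.5 at 10 µM, and the third control fell inside the 10 µM range. The changes were -2.04 ± 0.31 for MANF, -2.31 ± 0.37 for CRELD2 and -1.70 ± 0.43 for SDF2L1, with adjusted p of 0.000173, 0.000216 and 0.00551.

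Both lectin chaperones fell. CALR (calreticulin, soluble, chr19) had 1393, 1067 and 798 CPM at 0 µM, 539, 482 and 712 with 2 µM and 146, 125 and 145 with 10 µM, with no overlap between doses. Its change at 10 µM was -2.97 ± 0.24, a 7.83-fold fall (adjusted p = 1.22e-06). CANX (calnexin, its membrane-bound relative) had 1379, 1478 and 1246 CPM at 0 µM, 1036, 1293 and 1383 with 2 µM and 673, 515 and 566 with 10 µM. Here the 2 µM libraries overlapped the controls, and the change at 10 µM was -1.23 ± 0.19 (adjusted p = 0.000158).

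**Figure D2:**
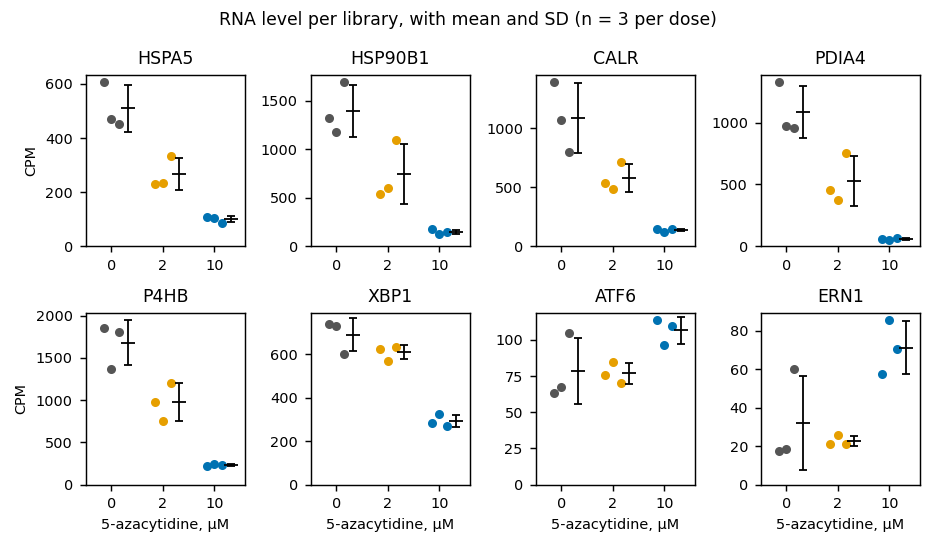
CPM of 8 genes in each library by dose, with the mean and SD (n = 3 per dose), each on its own linear axis from 0. HSPA5, HSP90B1, CALR, PDIA4 and P4HB step down at each dose, XBP1 drops at 10 µM, and ERN1 has 1 control library at 60.2 CPM inside the 10 µM range.

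Of the 8 disulfide isomerases and oxidases, 7 fell at 10 µM, with a median of -1.88. PDIA4 (ERp72, an isomerase of the BiP complex, chr7) had 1325, 974 and 957 CPM at 0 µM, 457, 372 and 757 with 2 µM and 62.9, 52.1 and 65.3 with 10 µM. The doses did not overlap, and its change of -4.18 ± 0.29, a 18.1-fold fall (adjusted p = 4.39e-07), was the greatest among the 36 genes. P4HB (PDI itself, also a subunit of collagen prolyl hydroxylase) went from 1861, 1375 and 1811 CPM at 0 µM through 980.3, 758 and 1204 at 2 µM to 222, 248 and 229.9 at 10 µM. Its change at 10 µM was -2.85 ± 0.22 (adjusted p = 8.01e-07). PDIA6 (P5, which attenuates sensor signalling) had 1373, 1254 and 1310.0 CPM at 0 µM, 720.1, 738 and 973 with 2 µM and 239.5, 205 and 236 with 10 µM. In both genes the 3 doses were separate, and the PDIA6 change was -2.53 ± 0.19 (adjusted p = 6.63e-07).

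PDIA3 (ERp57, the partner of calnexin and calreticulin) had 613, 512 and 566 CPM at 0 µM and 149, 121 and 141 at 10 µM. It fell by 2.04 (adjusted p = 3.11e-06), and its copy PDIA3P1 held 3103 counts in all against 133706. ERO1A, the oxidase that recharges PDI, had 174, 215 and 421 CPM at 0 µM, 110.3, 146 and 138 with 2 µM and 89.3, 78.4 and 79.2 with 10 µM. The third control was far above the first 2, all controls were above all treated libraries, and the change at 10 µM was -1.72 ± 0.28 (adjusted p = 0.000302). The related oxidase ERO1B was not called, with 2.84, 4.35 and 8.37 CPM at 0 µM and 7.49, 6.63 and 8.72 at 10 µM and a change of 0.55 ± 0.35 (adjusted p = 0.212). The third control reached the 10 µM level, and without it the change was 1.06 (adjusted p = 0.00875), a call. TXNDC11 fell by 0.77 (adjusted p = 0.00326). TXNDC5 was counted at a low level, 1.88, 1.26 and 0.589 CPM at 0 µM and 0.335, 0.384 and 0.485 at 10 µM, from 132 and 58 counts in all, and it overlaps the read-through gene BLOC1S5-TXNDC5, so its level is uncertain. Its change of -1.61 ± 0.51 (adjusted p = 0.0189) was no longer called without the first control or without the first or the second 10 µM library, with adjusted p of 0.0942, 0.0680 and 0.0582.

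Of the 3 sensors, PERK fell, IRE1 rose and ATF6 was not called at 10 µM, while XBP1 fell. EIF2AK3 (PERK, a kinase of the initiation factor eIF2) had 69.4, 75.2 and 81.1 CPM at 0 µM, 53.1, 59.1 and 88.1 with 2 µM and 24.1, 28.8 and 24.4 with 10 µM. The 10 µM range lay below both others, and the change was -1.55 ± 0.21 (adjusted p = 6.80e-05). ERN1 (IRE1, which splices XBP1 mRNA) had 17.5, 18.4 and 60.2 CPM at 0 µM, 21.3, 25.5 and 21.3 with 2 µM and 57.6, 85.4 and 70.6 with 10 µM. It was high in all 10 µM libraries and in the third control, so the 0 and 10 µM ranges overlapped while 2 and 10 µM did not. ERN1 rose by 1.15 ± 0.39 against 0 µM (adjusted p = 0.0258), which became 1.96 without the third control (adjusted p = 5.86e-06). The call was lost without the first control (0.0921), the second control (0.0835) or the second 10 µM library (0.0732). Against 2 µM it rose by 1.65 ± 0.39 (adjusted p = 0.00529), called in all 17 alternatives. ATF6 had 63.5, 67.2 and 105 CPM at 0 µM and 114, 96.1 and 109 at 10 µM, overlapping through the third control, and a change of 0.44 ± 0.21 that was not called (adjusted p = 0.0966). Without the third control it was 0.68 (adjusted p = 0.00507), and with total counts 0.70 (adjusted p = 0.0106), both calls. XBP1, the transcription factor that IRE1 activates by splicing, had 739, 729 and 603 CPM at 0 µM, 626, 571 and 634 with 2 µM and 285, 324 and 268 with 10 µM. It was lower in each 10 µM library than in any other and fell by 1.24 (adjusted p = 7.65e-05). Gene counts do not separate spliced from unspliced XBP1 mRNA.

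In ER-associated degradation, which returns misfolded proteins to the cytosol, 2 of 7 tested genes fell and 1 rose at 10 µM, with a median of -0.36. Over all genes 25.1% fell and 23% rose, so the count for these 7 is near the background. OS9, a lectin that recognises misfolded glycoproteins, had 283, 188 and 319 CPM at 0 µM and 99.1, 86.5 and 98.9 at 10 µM, with no overlap. SEL1L, the scaffold of the HRD1 ubiquitin ligase, went from 175, 204 and 217 CPM to 92.4, 76.0 and 85.4, again without overlap. Their changes were -1.47 ± 0.23 and -1.23 ± 0.19 (adjusted p = 0.000189 and 0.000163). SYVN1, the HRD1 ligase itself, had 16.9, 11.7 and 23.7 CPM at 0 µM and 8.71, 10.8 and 11.5 at 10 µM. The ranges did not overlap, but the change of -0.75 ± 0.35 was not called (adjusted p = 0.0935). It was called without the second control (-0.98, adjusted p = 0.0388), without the third 2 µM library (0.0350), with no filter (0.0316), with only the compared doses (0.0454) and with the replicate block over all doses (0.0445). HERPUD1, an ER-membrane protein that assembles this complex and a known target of stress, had 105, 83.9 and 188 CPM at 0 µM and 105, 97.3 and 90.1 at 10 µM. The treated values lay within the control range, with a change of -0.36 ± 0.27 (adjusted p = 0.282) that was 0.03 without the third control. EDEM1, a mannosidase-like factor, and DERL2 were not called either, at -0.30 ± 0.16 and -0.16 ± 0.21 (adjusted p = 0.151 and 0.563). DERL1, a channel-like protein of the same complexes, had 54.5, 63.2 and 55.5 CPM at 0 µM, 55.0, 68.6 and 55.2 with 2 µM and 82.1, 77.5 and 76.4 with 10 µM. All 10 µM libraries were above the rest, and it rose by 0.45 ± 0.17 (adjusted p = 0.0424). That call was lost in 11 of 17 alternatives, among them each one that left out a 0 or 10 µM library, with adjusted p of up to 0.132.

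The 4 genes of translocation and export all fell at 10 µM, with a median of -1.11. SEC61A1, the pore of the SEC61 channel, had 459, 472 and 361 CPM at 0 µM, 311, 278 and 392 with 2 µM and 227, 199 and 216 with 10 µM. The 10 µM libraries were below both other doses. SEC24D, a cargo adaptor of the COPII coat that buds vesicles from the ER, had 76.5, 85.7 and 95.7 CPM at 0 µM, 45.6, 44.3 and 70.9 with 2 µM and 26.7, 29.0 and 24.3 with 10 µM. Each dose had its own range. The changes at 10 µM were -1.01 ± 0.19 for SEC61A1, -0.90 ± 0.22 for SEC61B, -1.22 ± 0.20 for SSR1, a subunit of the translocon-associated complex, and -1.69 ± 0.21 for SEC24D, with adjusted p of 0.000768, 0.00499, 0.000283 and 3.75e-05.

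Of the 27 calls between 0 and 10 µM, 23 held in all 17 alternatives tried, and those of DNAJC3, TXNDC5, DERL1 and ERN1 did not.

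At 2 µM the members with a call were the chaperones HSPA5 and CALR and the isomerases PDIA4, PDIA6 and P4HB. Their changes against 0 µM were -0.93 ± 0.21, -0.91 ± 0.23, -1.04 ± 0.25, -0.70 ± 0.18 and -0.78 ± 0.20, with adjusted p of 0.0234, 0.0394, 0.0372, 0.0449 and 0.0497. ERO1A and HSP90B1 had changes of -1.04 ± 0.28 and -0.90 ± 0.26 without a call (adjusted p = 0.0548 and 0.0776). In 10 of the 36 genes all 2 µM libraries were below all controls, against 8.01% of all genes. The control and 2 µM libraries of the same number deviated together, and with the number as a block over these 6 libraries 2 genes fell, HSP90B1 (-0.94, adjusted p = 0.0303) and P4HB (adjusted p = 0.0310). In that fit HSPA5 had an adjusted p of 0.0516, PDIA6 0.0512, PDIA4 0.0540 and CALR 0.0892. The number that fell was 0 without the first or the second 2 µM library, 1 without the first control or any 10 µM library, 2 without the second control, and 13 without the third library of both 0 and 2 µM, those with more mitochondrial RNA.

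From 2 to 10 µM 23 members fell and 1, ERN1, rose, against 21.6% and 16.8% of all genes, 38.4% together, and the median was -0.92. PDIA4 again changed most, by -3.14 ± 0.27 (adjusted p = 3.55e-06), followed by HSP90B1 at -2.30 ± 0.27, P4HB at -2.07 ± 0.21 and CALR at -2.06 ± 0.23. DNAJB9 and EDEM1 fell in this comparison, by 0.73 and 0.53 (adjusted p = 0.0357 and 0.0225), calls that ended in 5 and 6 of the 17 alternatives. Without the third 2 µM library DNAJB9 was at -0.45 (adjusted p = 0.185). ERO1A, ERO1B, ATF6, TXNDC5, DERL2 and DNAJC3 were not called between 2 and 10 µM, but each was without the third control, at -0.68, 0.83, 0.46, -1.23, -0.40 and -0.46 (adjusted p = 0.00420, 0.0170, 0.0234, 0.0343, 0.0461 and 0.0331). The comparisons share libraries and are not independent.

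Other genes of the secretory pathway, from lists written for this work, are given for context with the counts that passed the test, where 25.1% of all genes fell and 23% rose. Among 29 other disulfide isomerases and folding factors 19 fell and 3 rose at 10 µM (median -1.15). NUCB2, a calcium-binding protein, changed by -2.56, PDIA5 by -2.48, the prolyl isomerase FKBP14 by -2.30 and the calcium-binding CALU by -2.22, with adjusted p from 3.48e-06 to 5.36e-06. Of 29 genes of the translocon, the signal peptidase and the oligosaccharyltransferase, which adds sugar chains, 16 fell and 2 rose (median -0.65). The transferase genes OSTC, STT3A, DDOST and RPN2 changed by -2.38, -1.98, -1.96 and -1.90, while TUSC3, another oligosaccharyltransferase gene, rose by 2.19 (adjusted p = 6.44e-05). Of 25 genes of the COPII coat and the KDEL receptors, which return chaperones to the ER, 16 fell and 3 rose (median -0.84), with KDELR2 at -2.30 and KDELR3 at -1.93. In 25 further degradation genes 5 fell and 4 rose (median -0.03), among them the ligase RNF5 at -1.14 and FAF2 at 0.85.

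Of 30 genes of the arm downstream of PERK and eIF2, more rose than fell at 10 µM. In all 14 rose and 5 fell (median 0.42). ATF4, its transcription factor, had 522, 487 and 583 CPM at 0 µM, 936, 764 and 469.7 with 2 µM and 1104, 1171 and 1082 with 10 µM, where all libraries were above the rest, a change of 1.08 ± 0.23 (adjusted p = 0.00178). PPP1R15A (GADD34, the eIF2 phosphatase subunit) had 22.6, 30.3 and 61.8 CPM at 0 µM and 292, 385 and 286 at 10 µM, a change of 3.07 ± 0.38 (adjusted p = 2.97e-05). SESN2, a stress-induced regulator of growth signalling, changed by 3.35, the amino acid transporter subunit SLC3A2 by 1.93, and PSPH, an enzyme of serine synthesis, by -1.57. DDIT3 (CHOP) rose by 1.19 (adjusted p = 0.0155). DDIT3, ATF4, TRIB3, SERP1 and FICD were named after their values were seen. At 2 µM ATF5 and CHAC1 rose, by 2.70 ± 0.32 and 3.62 ± 0.92 (adjusted p = 0.000579 and 0.0434), and ATF5 then fell from 2 to 10 µM by 1.50. TRIB3, a pseudokinase target of ATF4, rose at 10 µM by 0.77 (adjusted p = 0.0194). PERK activity was not measured, so the changes in this list cannot be assigned to PERK.

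Of 17 other stress sensors and processing proteases 9 fell and 3 rose (median -0.59), including the ER-bound factor CREB3L2 at -2.67. Of 24 cytosolic and mitochondrial heat shock genes 8 rose and 4 fell (median 0.30), where 23% of all genes rose and 25.1% fell. The cytosolic HSPA1A and its cofactor BAG3 rose by 1.77 and 1.74, while the mitochondrial chaperones TRAP1 and HSPD1 fell by 1.49 and 0.93. Plasma proteins and other secreted liver products, the cargo of this pathway, fell at 10 µM in all 30 tested genes, with a median of -4.86. AFP went from 7136, 5566 and 6492 CPM at 0 µM to 76.8, 92.1 and 51.3 at 10 µM. The sum of the 32 listed secreted genes was 4.67% to 8.07% of all counts at 0 µM and 0.203% to 0.354% at 10 µM. How far the lower cargo RNA has a part in the lower chaperone RNA was not tested.

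**Figure D3:**
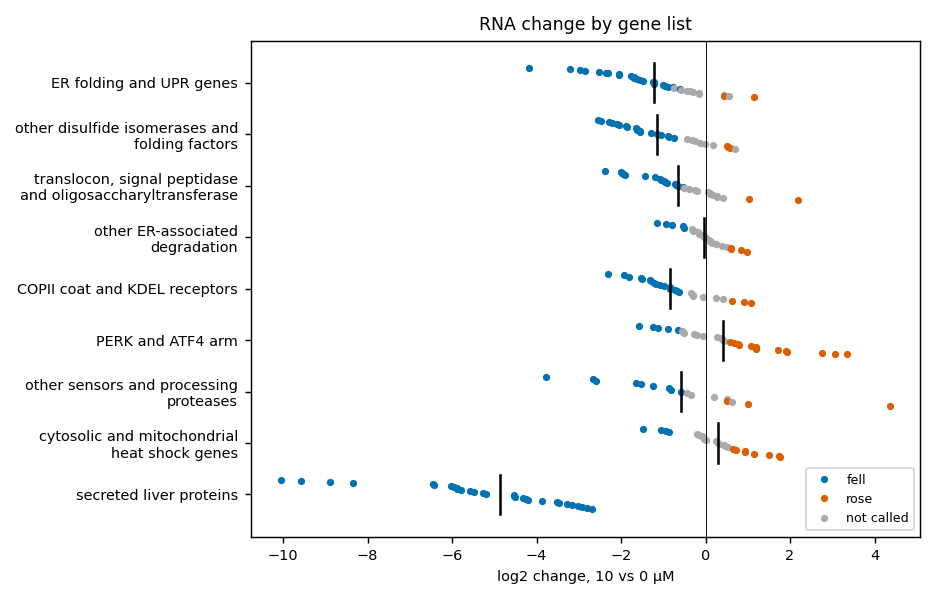
Log2 RNA change from 0 to 10 µM of each tested gene, by list, with the list's median as a black bar. The ER folding and UPR genes have a median of -1.23, the PERK and ATF4 arm 0.42, the heat shock genes 0.30 and the secreted liver proteins -4.86.

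Grouped by the promoter letters shown above, 7 of the 8 members with an ERSE fell at 10 µM, with a median of -2.33. The exception was ERO1B. Of the 3 members with an ERSE-II, HYOU1 and SDF2L1 fell and HERPUD1 was not called. In the 22 members with neither element 14 fell and 1 rose, with a median of -0.93. PDIA4, with the greatest fall of all members, and P4HB are among these 22. The grouping was made with the RNA changes known, and a part of the element in them was not tested. Of the 17 other genes with an exact ERSE 8 were tested, and 2 fell and 2 rose, with a median of -0.24. Over all tested genes 25.1% fell and 23% rose, so the count for these 8 is near the background. SERP1, an ER stress-associated translocon protein that shares its element with the divergent gene EIF2A, changed by -0.73 (adjusted p = 0.0139), and FICD, which modifies BiP, by -0.64 (adjusted p = 0.0815).

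Most promoter peaks of these genes were not called at 10 µM, as were most over the genome. Of the 51 promoter peaks 8 rose and 3 fell from 0 to 10 µM, against 20.5% and 14.9% of all promoter peaks, and their median change was 0.17 against 0.09 over all promoter peaks. For each gene the promoter peak with the most reads at 0 µM was set beside its RNA. Among the 21 genes with such a peak whose RNA fell, 18 peaks were not called, 2 rose and 1 fell. Over the 3156 genes with a promoter peak whose RNA fell, the peak fell in 24.4% and rose in 8.62%. HSPA5's peak at chr9:125241144-125241644, which spans the element shown above, had 33.0, 37.1 and 35.2 CPM at 0 µM, 24.4, 27.2 and 33.3 with 2 µM and 46.0 and 44.6 in the 2 libraries with 10 µM. The 10 µM libraries were the highest, and the change was 0.36 ± 0.15 (adjusted p = 0.0355), a call lost without any 1 of the 0 or 10 µM libraries (adjusted p of 0.0726 to 0.167). The HSPA5 peak was also not called with DESeq2 (adjusted p = 0.1205) or with relative log expression scaling in edgeR (0.0631). CALR's peak at chr19:12938240-12938740 had 16.3, 18.2 and 13.6 CPM at 0 µM and 26.8 and 22.0 at 10 µM. It rose by 0.61 ± 0.18 (adjusted p = 0.00396), but was not called without the third control (0.0640) or the first 10 µM library (0.111).

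PDIA4, whose RNA fell furthest, had a promoter peak at chr7:149028407-149028907 with 73.0, 89.7 and 76.9 CPM at 0 µM and 97.5 and 70.0 at 10 µM. The ranges overlapped, and the change was 0.07 ± 0.16 (adjusted p = 0.723). A second PDIA4 peak annotated as promoter by the authors, chr7:149005723-149006223, fell by 0.88 (adjusted p = 0.000922). It lies far from the RefSeq start, near the opposite end of the gene's span (chr7:149003051-149028505). A second PDIA6 promoter peak, chr2:10832264-10832764, lies 29 bp from a RefSeq start of that gene, whose RNA fell. That peak fell at 10 µM, by -0.68 against 0 µM (adjusted p = 0.00128) and by -0.735 against 2 µM (adjusted p = 0.000944). The main PDIA6 peak, the one set beside its RNA, changed by 0.05 from 0 to 10 µM and was not called. TXNDC5 had the lower main peak, chr6:7909876-7910376, with 45.1, 43.5 and 36.7 CPM at 0 µM and 25.6 and 21.5 at 10 µM, a change of -0.81 ± 0.17 (adjusted p = 7.49e-05). ERN1's promoter peak changed by -0.05 ± 0.15 (adjusted p = 0.814) while its RNA rose. Symbols of peaks are the authors' annotation to the nearest gene, and the peak over the HSP90B1 elements, chr12:103929963-103930463, carries the symbol MIR3652. That peak, 197 bp from the HSP90B1 start, changed by 0.19 ± 0.16 from 0 to 10 µM (adjusted p = 0.306). From 2 to 10 µM it rose by 0.47 (adjusted p = 0.0158). The main peak counted for HSP90B1 in both comparisons is instead chr12:103929233-103929733, 927 bp from the start, at -0.29 from 0 to 10 µM and not called in either. For SYVN1 the main peak is 677 bp from the start. A SYVN1 peak at 68 bp was not called from 0 to 10 µM (0.19) and rose from 2 to 10 µM by 0.64 (adjusted p = 0.00166).

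**Figure D4:**
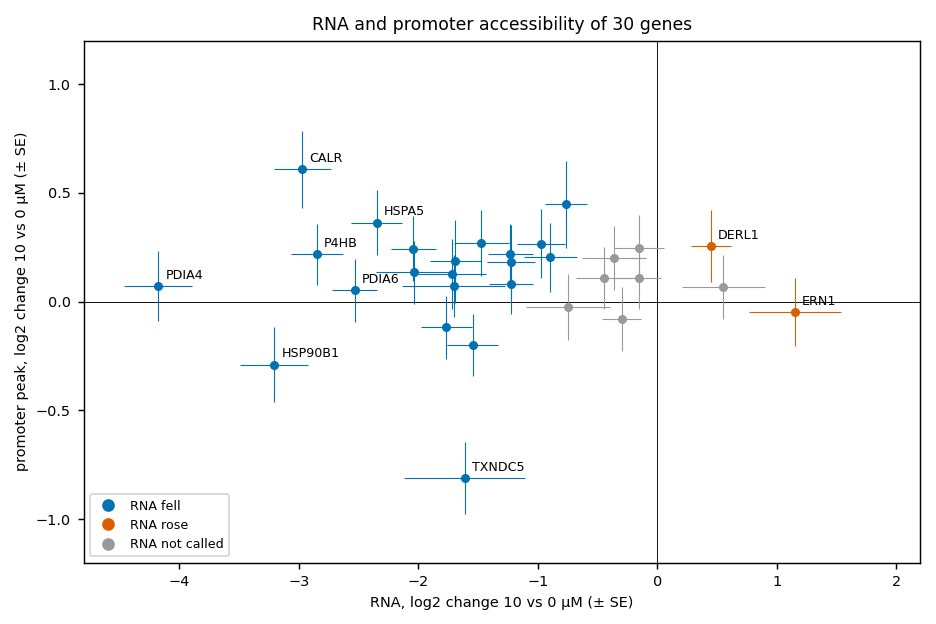
RNA change against the change of the main promoter peak, both as log2 from 0 to 10 µM with the SE, for 30 genes, on axes of different scale. RNA runs from -4.18 for PDIA4 to 1.15 for ERN1, while all peaks but TXNDC5, at -0.81, lie between -0.29 and 0.61. The -0.29 is HSP90B1, whose peak here is 927 bp from its start.

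Between 2 and 10 µM, 20 promoter peaks rose and 4 fell, where 24.5% and 13.7% of all promoter peaks did. The main peak rose in 9 of the 19 genes whose RNA fell in that comparison and fell in 0 of them. Over the 2606 genes with a promoter peak whose RNA fell in that comparison, the peak rose in 16.5% and fell in 20.4%. At 2 µM against 0 µM 1 of the 51 promoter peaks rose and 1 fell (7.04% and 5.01% of all promoter peaks). The 20 became 8 without the first 10 µM library, 9, 11 and 13 without libraries 1, 2 and 3 of 2 µM respectively, and 10 with libraries scaled by total counts. The 8 that rose from 0 to 10 µM became 4, 3, 4 and 5 without the first control, the third control, the first and the second 10 µM library.

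Of 72 peaks not annotated as promoter at 27 genes 20 rose and 28 fell at 10 µM, against 34.6% and 34.1% of all non-promoter peaks. At 2 µM 12 rose and 3 fell, against 19.8% and 8.47%, and between 2 and 10 µM 16 rose and 26 fell, against 29.1% and 34.7%. With the promoter peaks, 28 of the 123 member peaks rose and 31 fell from 0 to 10 µM, where 29.9% and 27.6% of all peaks did. The corresponding numbers were 13 and 4 from 0 to 2 µM, against 15.5% and 7.3%, and 36 and 30 from 2 to 10 µM, against 27.5% and 27.6%. The 10 with the smallest adjusted p held rises and falls. A peak at chr6:7270718-7271218, which the authors' annotation places in an intron of an SSR1 transcript, lies outside the RefSeq span of SSR1 (chr6:7281143-7313199). It went from 48.5, 49.2 and 42.0 CPM at 0 µM to 6.04 and 6.52 at 10 µM, a change of -2.90 ± 0.19 (adjusted p = 4.09e-14). A peak labelled HSPA5 and annotated as 3′ UTR by the authors, chr9:125233634-125234134, lies outside the HSPA5 span given above, past its 3′ end. It had 5.34, 2.99 and 5.68 CPM at 0 µM, 7.22, 11.4 and 7.77 with 2 µM and 18.9 and 31.8 with 10 µM. Each dose lay above the one before it, and the change at 10 µM was 2.46 ± 0.25 (adjusted p = 4.75e-10). A peak in the first intron of XBP1, chr22:28799174-28799674, went from 7.52, 9.65 and 8.52 CPM at 0 µM through 12.7, 12.7 and 15.6 at 2 µM to 25.0 and 24.4 at 10 µM, a rise of 1.50 ± 0.18 (adjusted p = 1.51e-08) at a gene whose RNA fell. This peak lies 653 bp from the XBP1 start. XBP1 has no peak annotated as promoter, so it is not among the 30 genes whose RNA was set beside a promoter peak. A peak in an intron of DNAJC3 (chr13:95714411-95714911) and a peak annotated as 3′ UTR within DNAJB11 (chr3:186583757-186584257) rose by 3.64 and 3.36.

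At ERN1, where RNA rose, peaks in the second intron (chr17:64082106-64082606) and the first (chr17:64120095-64120595) rose by 1.38 ± 0.16 and 1.49 ± 0.18 (adjusted p = 3.17e-09 and 1.65e-08). An intronic peak of ATF6 fell by 2.41, and intergenic peaks at -9277 bp from the start of HERPUD1 and -3298 bp from that of SDF2L1 fell by 3.15 and 2.34. Whether any of these peaks acts on the gene it is labelled with was not measured.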

How the data were processed

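RNA was measured in 9 libraries and accessible chromatin in 8, grouped by the dose in the labels. The authors deposited whole-number counts per gene and per 501-bp peak, with a nearest-gene annotation for peaks. The submitters' processing notes name HISAT2 2.2.1, HTSeq 2.0.4, DESeq2 1.42.1, DiffBind 3.12.0 and hg38, without their order. The peak caller and the use of strand in counting are not given in the sources used here. Symbols were matched for 62030 gene IDs whole and 636 more without the version, and 521 stayed unmatched.

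From the deposited counts, edgeR 4.0.16 (R 4.3.3) was run with filterByExpr, TMM scaling and a quasi-likelihood test over all features and doses. Log2 changes used a prior count of 0.125, and p-values were adjusted by Benjamini-Hochberg. Alternatives were DESeq2 1.42.0, other scalings, no filter, only the compared doses, a replicate block and leaving out each library. The code was tested on simulated data. Promoters came from RefSeq (GRCh38.p14) and were searched for exact letters.

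The members and lists were chosen with earlier results of these data known. List genes were named by a rule, up to 4 with the smallest adjusted p in each list and RNA comparison, and non-promoter peaks from the 10 with the smallest, with exceptions chosen after their values were seen: the peaks at XBP1 and SDF2L1 and the second peak at ERN1. Replicate numbers come from the labels. Deviations of same-numbered RNA libraries at 0 and 2 µM correlated at 0.19, 0.26 and 0.28, and at 0 and 10 µM at 0.01, -0.03 and -0.07, so the block is given beside the 2 µM RNA results.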

Additional observations from a re-analysis of the deposited data

How the results depend on the processing

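Counts of called genes and peaks depend on the processing more than the directions do: in no alternative did a called change reverse. Of the RNA calls, 23 of 27 between 0 and 10 µM, 18 of 24 between 2 and 10 µM and 0 of 5 between 0 and 2 µM held in all 17 alternatives. Of the peak calls, 44 of 59, 41 of 66 and 7 of 17 held in 14 alternatives. The cause of the differences was not tested.

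The 5 genes that fell at 2 µM became 0 with only the compared doses or with total counts, 2 with the replicate block over the compared doses, 6 with the replicate block over all doses, 7 with DESeq2, 13 without the libraries numbered 3 at 0 and 2 µM, and 0 to 7 when 1 library was left out. The 2 genes that rose from 0 to 10 µM became 1 with DESeq2, no filter or the replicate block over the compared doses, 3 with total counts, and 0 to 3 with 1 library left out, while those that fell ranged from 23 to 27. The gene that rose from 2 to 10 µM became 2 with DESeq2, either replicate block or without the libraries numbered 3, 3 with only the compared doses, 4 with total counts, and 1 to 3 with 1 library left out, when 17 to 27 fell.

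At 2 µM the 13 peaks that rose became 8 with DESeq2 and 9 to 14 with 1 library left out, and the 4 that fell became 9 with relative log expression (RLE) factors, 10 with only the compared doses and 3 to 11. The promoter peak that rose became 0 with DESeq2, 3 by RefSeq start and 0 to 1, and the one that fell became 5 with RLE or only the compared doses and 0 to 6. The 8 promoter peaks that rose from 0 to 10 µM became 4 with DESeq2, 5 with RLE or total counts and 3 to 9, the 3 that fell 3 to 5, and all peaks that rose 21 to 29. Between 2 and 10 µM the 20 promoter peaks that rose became 10 with DESeq2 or total counts, 12 with the replicate block and 8 to 20, the 4 that fell 2 to 4, and all peaks that rose 21 to 36. Of the 58 peaks within 1000 bp of a RefSeq start, whatever their symbol, 11 rose and 2 fell from 0 to 10 µM. From 2 to 10 µM 25 of them rose and 3 fell. Among them are peaks near the starts of CRELD2, SEC61A1 and DNAJC3 that carry the symbols ALG12, MGLL and DNAJC3-DT. The ERSE count of 8 became 14 with 1 mismatch.

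Scaling RNA by total counts moved the median of all genes to 0.15 at 2 µM and 0.24 at 10 µM, where 5788 genes rose and 3747 fell against 4371 and 4767, and 24 members fell and 3 rose. With 2 ATAC libraries at 10 µM, leaving out 1 leaves a lone library that is assumed to vary like the others. The low counts of TXNDC5 limit its precision.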
